A study of Mus musculus with 2 samples.

Results

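Chromosome 1 carries 265 EHMT2 sites that the study's clustering placed in cluster K1 or K2, out of 1709 EHMT2 sites of all 4 clusters on the same chromosome. They were chosen as every distinct interval of chromosome 1 listed under K1 or K2, whatever its ATAC signal, and the listing of chromosome 1 was first checked to be complete: the numbered names of the EHMT2 peaks run on without a gap to the first name of chromosome 2. Of these sites, 91 are listed under K1 alone, 170 under K2 alone and 4 under both, so that 95 count as K1 and 174 as K2. The accessibility data are ATAC-seq peaks, in which the transposase Tn5 cuts open DNA and tags the cut ends. They come from mouse embryonic stem cells (mESCs) of a BL6/129 hybrid background, made from the line KH2, that had an EHMT2-dTAG-mcherry allele, a degron and HA tags joined to endogenous EHMT2, with the fluorescent protein mCherry made from the same transcript as a separate reporter. The only group is EHMT2-dTAG mESCs kept in DMSO for 24 h, the solvent of the depleting drug, so these are cells with EHMT2 and no depleted cells were measured. The 2 samples were independent clones of the same line with 50000 cells each. The authors deposited 1 list of 116782 peaks for both, 9227 of them on chromosome 1, so no value below has a spread between clones. The cells were grown on feeder cells, which are fibroblasts. A peak lay within 250 bp of a start of all 6 stem cell genes looked up, with 17 fragments at Pou5f1, 42 at Sox2, 40 at Nanog, 31 at Esrrb, 26 at Sall4 and 151 at Zfp42. Of 6 fibroblast genes, Col1a1 had one with 18 fragments, Col1a2 with 23 and Thy1 with 11, while Dcn, Postn and Lum had none. Such a peak was found at 68.9% of 21911 protein-coding genes, so these counts by themselves do not tell the cell types apart. The part of feeder cells in the peaks of the sites was not tested.

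EHMT2, also called G9a, is a histone methyltransferase that writes H3K9me2, a mark of silent chromatin, together with its partner EHMT1. LINE-1 elements are retrotransposons that copy themselves through RNA. An intact mouse copy begins with a promoter built of tandem monomers and goes on with one open reading frame for an RNA-binding protein and another for an endonuclease and reverse transcriptase. The A, Tf and Gf families of young mouse LINE-1 elements are told apart by their monomers. No repeat annotation was used here, so the groups below are named by what was measured in the reference sequence.

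Aligning the window of 250 bp on either side of each EHMT2 summit with those of all other sites joined the 265 windows into 5 sequence groups, with windows joined at 90% identity over at least 50% of their length. Group 1 held 182 sites, group 2 held 54 and group 3 held 27, and 2 sites stood alone. Most windows contain a sequence that repeats in tandem. The commonest repeat unit was 212 bp long in group 1 (120 sites, with 214 bp at a further 25), 208 bp in group 2 (48 sites) and 206 bp in group 3 (15 sites). One unit around the ATAC summit shows what the cut DNA is made of in each group. Each unit below is from the site with most fragments among those with the group's commonest unit, read along the strand of the open reading frame downstream, from GRCm38 (mm10). Capitals mark a match to AANATGGC on either strand, the core that the zinc finger factor YY1 binds.
Group 1, chr1:107823732-107823943, plus strand: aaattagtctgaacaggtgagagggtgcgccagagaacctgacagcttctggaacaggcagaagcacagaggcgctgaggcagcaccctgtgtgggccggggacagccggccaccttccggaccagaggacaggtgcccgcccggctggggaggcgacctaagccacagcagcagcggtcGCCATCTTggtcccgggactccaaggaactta
Group 2, chr1:95238903-95239110, minus strand: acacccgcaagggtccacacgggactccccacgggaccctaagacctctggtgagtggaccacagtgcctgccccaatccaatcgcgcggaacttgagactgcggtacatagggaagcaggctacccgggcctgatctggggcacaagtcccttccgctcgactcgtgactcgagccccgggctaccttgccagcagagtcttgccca
Group 3, chr1:174254245-174254450, plus strand: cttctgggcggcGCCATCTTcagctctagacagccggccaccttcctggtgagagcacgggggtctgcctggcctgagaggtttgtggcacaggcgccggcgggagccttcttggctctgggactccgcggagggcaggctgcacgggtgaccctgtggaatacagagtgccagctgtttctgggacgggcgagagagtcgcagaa

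The 61 bp centred on the EHMT2 summit show how the sites with most and with fewest fragments in each group compare at the summit used. For peaks found by both ChIP-seq and ChIP-exo of EHMT2, the paper used the midpoint between the summits of the assays. Of the K1 sites, 91 of 95 were found by both, and of the K2 sites 122 of 174. At these the summit need not be the point of strongest binding. Capitals mark CG dinucleotides, the sites of DNA methylation. The strand is again that of the open reading frame.
Group 1, most fragments (135), chr1:107823673-107823733, plus strand: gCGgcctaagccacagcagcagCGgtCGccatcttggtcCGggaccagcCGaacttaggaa
Group 1, fewest fragments (16), chr1:47086589-47086649, minus strand: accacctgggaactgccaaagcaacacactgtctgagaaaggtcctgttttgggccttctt
Group 2, most fragments (51), chr1:139546466-139546526, minus strand: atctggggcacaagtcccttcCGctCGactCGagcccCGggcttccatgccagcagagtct
Group 2, fewest fragments (17), chr1:51257138-51257198, minus strand: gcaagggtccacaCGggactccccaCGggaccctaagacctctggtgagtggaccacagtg
Group 3, most fragments (64), chr1:174254277-174254337, plus strand: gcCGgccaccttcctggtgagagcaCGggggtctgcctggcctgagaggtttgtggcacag
Group 3, fewest fragments (26), chr1:34417931-34417991, plus strand: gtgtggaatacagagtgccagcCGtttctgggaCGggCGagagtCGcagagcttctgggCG
The group 1 site of most fragments has 5 CG dinucleotides in this stretch and the site of fewest has 0. The corresponding sites of group 2 have 4 and 2. In group 3 the order is the other way round, with 2 at the site of most fragments and 5 at the site of fewest. These are single sites, and the count depends on where in the repeat the summit falls. No tandem unit was found at the group 1 site of fewest fragments.

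A peak of the list lay within 250 bp of the EHMT2 summit at all 265 sites (exact Clopper-Pearson 95% interval 98.6 to 100%). By comparison, 5.54% of the sequenced positions of chromosome 1 lie within 250 bp of a peak. Among the other EHMT2 sites of the chromosome, 540 of 1187 K3 sites (45.5%) and 237 of 259 K4 sites (91.5%) had such a peak. The clustering that defined K1 to K4 had ATAC signal among its inputs, so these shares describe the clusters and were not tested. At every K1 and K2 site the peak covered an EHMT2 summit. The 265 sites met 262 different peaks, because 3 pairs of neighbouring K2 sites lay under a shared peak.

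The fragments counted over the ATAC summit, calculated back from the fold enrichment and p-value of each peak, had a median of 51 at K1 sites (quartiles 45 and 56, range 37 to 135). At K2 sites the median was 34 (quartiles 27.25 and 44, range 16 to 91). The ranges overlap, but 99 of the 174 K2 sites had fewer fragments than every K1 site. Across the whole list the median was 9 and the quartiles 7 and 17, so that 263 of the 265 sites exceeded the upper quartile of all peaks. The exceptions were a K2 site with 16 and another with 17 fragments. Peaks were also broad at these sites, with a median width of 1249 bp at K1 and 962.5 bp at K2 sites, compared with 589 bp over the list. In bulk cells, a site open in more cells and a site cut more often per cell cannot be told apart.

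The difference in fragments between K1 and K2 was not found in the fold enrichment, which divides the fragment pileup by the local background after adding 1 to each. The median fold enrichment was 9.87 at K1 sites (quartiles 8.61 and 11.3) and 10.2 at K2 sites (quartiles 8.69 and 11.7), and the distributions overlap almost fully. Both stood above the median of 3.98 over the list. The local background itself had a median of 4.44 fragments at K1 sites and 2.40 at K2 sites, compared with 1.32 for all peaks. Over the 265 sites, fragments and background had a Spearman's rho of 0.80 (0.46 in the 95 K1 and 0.71 in the 174 K2 sites), a description over sites that share 1 pair of libraries and much of their sequence. MACS2 takes this background from the surrounding bases, which include the site itself.

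**Figure D1:**
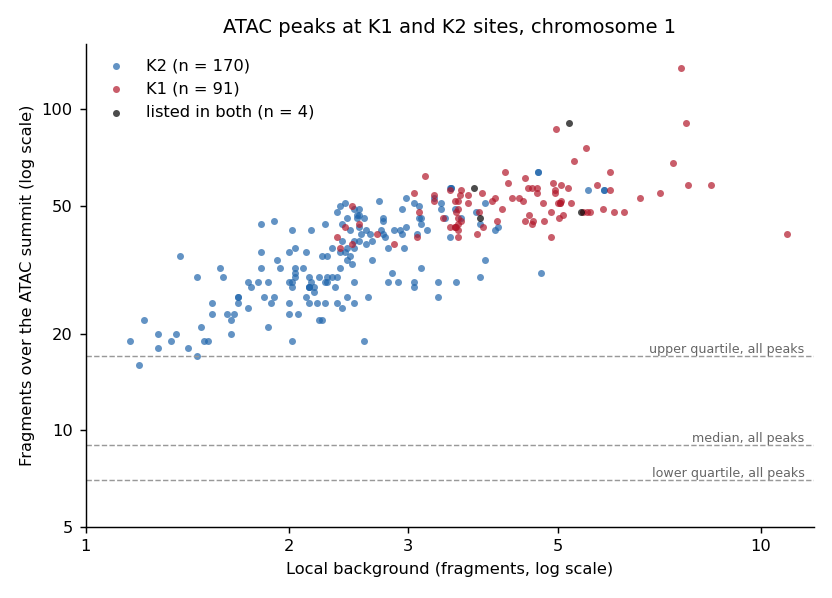
Fragments over the ATAC summit (vertical, log scale) against the local background in fragments (horizontal, log scale) for 91 K1 sites (red), 170 K2 sites (blue) and 4 sites listed in both (black), with dashed lines at the quartiles of all peaks (7, 9 and 17). K1 sites lie higher and farther to the right than most K2 sites, along the same band.

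At the top of the range stood a K1 site in intergenic DNA at chr1:107822605-107824722, with 135 fragments (exact Poisson 95% interval 113.2 to 159.8) over a background of 7.62, a fold enrichment of 15.8. The following pair had 91 fragments each (73.3 to 111.7). One of them, chr1:139715526-139718060, is a K1 site in an intron of Gm4788, and the other, chr1:120993590-120995020, is intergenic and listed in both clusters. Among several K1 sites at the median of 51 fragments (38.0 to 67.1), chr1:63886259-63887070 belongs to group 3, while others belong to group 1. The lowest K1 site, chr1:47105088-47106796, had 37 fragments (26.1 to 51.0). It was followed by chr1:103153354-103154470 and chr1:137344394-137345825 with 38 fragments each (26.9 to 52.2).

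The K2 sites with most fragments, after the site listed in both, were the neighbours chr1:174253631-174254438 and chr1:174254529-174254986, which lie under 1 shared peak of 64 fragments (49.3 to 81.7). Among several K2 sites at the median of 34 fragments (23.5 to 47.5) was chr1:17921708-17922757. The fewest fragments were found at chr1:47086178-47086753, with 16 (9.1 to 26.0) over a background of 1.20. Next came chr1:51256881-51257417, in an intron of 9330175M20Rik, with 17 (9.9 to 27.2) and chr1:17704647-17705488, in an intron of Gm16070, with 18 (10.7 to 28.4). A K2 site of group 1 that starts at position 25525658 also had 18. Of the remaining sites listed in both clusters, chr1:139907060-139908299 in an intron of Gm16332 had 57 fragments, chr1:165526561-165528313 in an intron of Adcy10, which encodes the soluble adenylyl cyclase, had 48, and chr1:20283350-20285172 in an intron of Pkhd1, the gene of fibrocystin, had 46. All 4 sites listed in both belong to group 1.

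The ATAC summit was close to the EHMT2 summit, at a median distance of 126 bp at K1 sites and 92.5 bp at K2 sites. It lay within 250 bp at 77 of 95 K1 sites (81.1%) and 151 of 174 K2 sites (86.8%). For comparison, the median distance was 179 bp at the 540 K3 sites and 97 bp at the 237 K4 sites that had a peak. Read along the strand of the downstream reading frame, the ATAC summit was centred on the EHMT2 summit, with a median offset of -12 bp and quartiles of -124 and 74 bp. At sites found by both EHMT2 assays, these distances are taken from the midpoint described above.

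The sequence of the sites was not used in the clustering. In the reference genome, the windows of 250 bp on either side of the summit were repeat-masked over 100% of their bases at the median site, and 224 of 265 (84.5%) were masked from end to end, compared with 5.72% of the windows around all ATAC summits. They were rich in G and C, with a median GC content of 63.1% against 49.7% around all peaks, and in CG dinucleotides, with a median of 29 against 7. The windows had close relatives in large number. The median site matched 1973 other loci of the genome at 90% identity or more (quartiles 1945 and 2312), and 691 loci at 98% identity or more.

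How far reads of 100 bases could be placed at 1 location was measured as the share of 100-base words of the window that occur in a single place in the genome. That share had a median of 0% at K1 sites and 13.3% at K2 sites, as against 73.1% at K3 sites, 100% at K4 sites and 100% around the ATAC peaks of chromosome 1. At 50 of 95 K1 sites (52.6%) and 57 of 174 K2 sites (32.8%) there was no such word, which was the case at 1.80% of the peaks of chromosome 1. No K1 site had 50% or more unique words, the highest share being 44.5%, and 16 K2 sites had. Because the authors' alignment wrote a read that fits several places equally well to 1 of them at random, the fragments at a site with few unique words can in part be those of its copies. The 16 K2 sites with at least 50% unique words had a median of 37 fragments and a range of 28 to 50, and the 57 K2 sites without a unique word had a median of 29 and a range of 18 to 57. These sets differ in sequence group, since 14 of the 16 and 30 of the 57 are in group 1, and none of the 16 and 21 of the 57 in group 2. Within group 1 the medians were 36.5 and 30. Over all 265 sites, fragments and the unique share had a Spearman's rho of 0.02, but it was 0.18 in the 95 K1 sites and 0.26 in the 174 K2 sites. With the number of loci matching at 98% identity, rho of fragments was -0.32 over all 265 sites, -0.27 in K1 and -0.28 in K2, again over sites that are copies of one another.

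**Figure D2:**
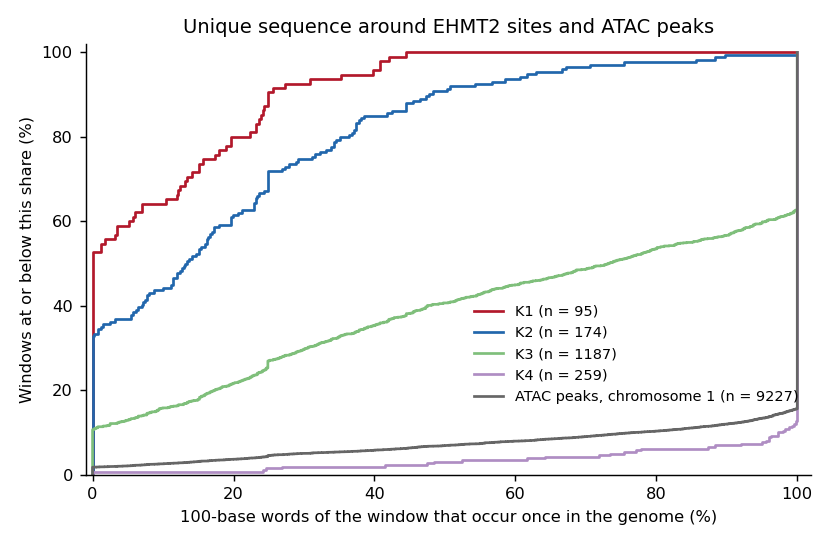
Cumulative share of windows (vertical, %) against the share of their 100-base words that occur in 1 place in the genome (horizontal, %), for K1, K2, K3 and K4 sites and for the ATAC peaks of chromosome 1. The K1 and K2 curves rise at the left edge, with 52.6% and 32.8% of windows at 0, while the K4 and peak curves stay low until 100%.

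The site with most unique sequence was chr1:7271475-7272604, an intergenic K2 site where 100% of the words are unique and no locus matches at 98% identity. Its peak had 37 fragments (26.1 to 51.0) and a fold enrichment of 11.4. It is 1 of the 2 sites that stood alone in the grouping, has no tandem unit, and its words were counted in the window only, which is narrower than the peak. The next was chr1:103419459-103419745, in an intron of Gm29141, with 89.8% unique words and 30 fragments (20.2 to 42.8). The stretches around their EHMT2 summits are shown to set beside those of the repeated sites, with CG dinucleotides in capitals.
Site with 100% unique words, chr1:7272005-7272065, plus strand: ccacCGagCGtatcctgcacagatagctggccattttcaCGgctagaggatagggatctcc
Site with 89.8% unique words, chr1:103419679-103419739, minus strand: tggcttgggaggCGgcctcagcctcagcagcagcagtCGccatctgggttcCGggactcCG
Then followed the K2 sites chr1:106119097-106119978 with 88.3% and 32 fragments (21.9 to 45.2), chr1:124971169-124973276 with 85.6% and 50 (37.1 to 65.9), and chr1:51432821-51434770 with 75.4% and 29 (19.4 to 41.6). Each of the 5 exceeded the upper quartile of 17 fragments over the whole list.

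Within 8000 bp of the EHMT2 summit, every site had an open reading frame of at least 300 codons, counted from stop to stop. The same search found one at 577 of 1444 K3 and K4 sites (40%) and around 22.0% of the 9227 ATAC summits of the chromosome, those at the sites included. The longest one lay downstream of the site at 263 of 265 sites (99.2%, interval 97.3 to 99.9%), the exceptions being the K2 sites chr1:23306354-23307972 and chr1:44490778-44491676. The share was 28.5% of the K3 and K4 sites and 13.6% of the ATAC summits, with those that have no frame counted in. Among those with a frame, the longest lay downstream at 411 of 577 K3 and K4 sites and 1257 of 2028 ATAC summits. At the K1 and K2 sites, the longest frame was exactly 1300 codons long in 166 cases. At 177 sites (66.8%), 74 of them K1 and 106 K2 with those in both counted under each, a frame of at least 300 codons was followed within 100 bp by another of at least 1000, as it was at 6.02% of the K3 and K4 sites and 2.92% of the ATAC summits. A short frame followed by a long one is the layout described above for an intact LINE-1 element.

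The length of the frame nearest to the site followed the sequence groups, although groups had been made from the windows alone. It was 384 codons at 151 of the 181 group 1 sites with a frame downstream, 379 codons at 35 of 53 group 2 sites and 407 codons at 25 of 27 group 3 sites. No site of any of these groups had the length of another group. The frame was searched downstream of the EHMT2 summit, near which the ATAC summits lie, so that the ATAC summit lay upstream of its start at all 263 sites is largely set by the search. The median distance was 569 bp (quartiles 418 and 816.5). The peaks ended close to that start: the 3′ edge of the peak was at a median of 26 bp before it, with quartiles of -85.5 and 94 bp, negative values lying past the start.

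**Figure D3:**
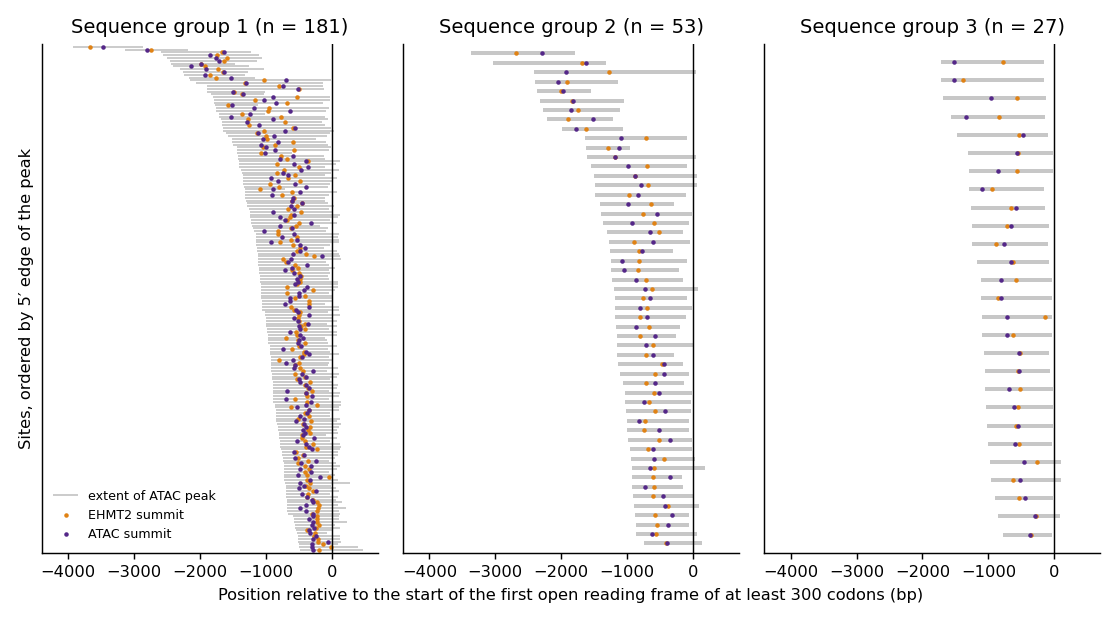
Extent of the ATAC peak (grey bars), EHMT2 summit (orange) and ATAC summit (purple) at each site, placed relative to the start of the first open reading frame of at least 300 codons (0 on the horizontal axis, in bp, upstream to the left), for the 181, 53 and 27 sites of sequence groups 1 to 3 with a frame downstream. Sites are ordered by the 5′ edge of the peak, and most bars end near 0 while their 5′ edges range widely.

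A tandem unit was found at 227 of 265 sites, at all 95 K1 sites and at 136 of 174 K2 sites (78.2%), compared with 16.2% of the K3 and K4 sites and 4.90% of the ATAC summits of the chromosome. The EHMT2 summit lay inside the tandem array at 221 of the 227 sites and the ATAC summit at 222. The unit was searched around the EHMT2 summit, so these shares are in part set by the search.

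The 3 sequence groups were divided unequally between the clusters. Of the 95 K1 sites, 86 were in group 1 (90.5%, interval 82.8 to 95.6%), 9 in group 3 and none in group 2. Of the 174 K2 sites, 100 were in group 1 (57.5%, 49.8 to 64.9%), 54 in group 2 and 18 in group 3. All 54 sites of group 2, 48 of them with the unit of 208 bp, were therefore K2. The sites are copies of one another and were not treated as replicates, so these shares are given without a test, and the intervals cover counting error only.

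Fragments differed between the groups also inside K2. The 54 sites of group 2 had a median of 28 (quartiles 23.25 and 30, range 17 to 51), the 100 K2 sites of group 1 a median of 37 (29 and 45, 16 to 91) and the 18 K2 sites of group 3 a median of 48.5 (43 and 56, 26 to 64). The groups overlap, but 49 of the 54 sites of group 2 lay below every K1 site, compared with 47 of 100 for group 1 and 3 of 18 for group 3. The fold enrichment kept this order, with medians of 8.06, 10.9 and 11.1. Inside K2 the groups also differed in the number of other loci that match a window. At the identity used to join windows, medians were 2533 in group 2, 1979.5 in group 1 and 546.5 in group 3. This reverses the order of fragments. At the stricter identity used above they were 866, 895.5 and 206.5, so groups 1 and 2 did not keep the reversed order. How far randomly placed reads contribute to these fragments was not tested. The 9 K1 sites of group 3 had a median of 56 fragments and the 86 of group 1 a median of 50.5. The windows of group 2 held a median of 31 CG dinucleotides, the same number as those of the K1 sites in group 1.

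In group 1, K1 and K2 sites differed in the length of the tandem array, a property of the reference sequence. The array was 917.5 bp long at the median K1 site (n = 86, quartiles 711.75 and 1108.75 bp) and 535 bp at the median K2 site with a unit (n = 67, quartiles 496 and 616 bp). It held at least 3 units at 74 of 86 K1 sites (86.0%, interval 76.9 to 92.6%) and at 16 of 100 K2 sites (16.0%, 9.43 to 24.7%). A further 33 of the 100 K2 sites had no unit detected, and an array shorter than about 2 units could not be found by the search. Fragments were more numerous at group 1 sites with more units, from a median of 30 at the 33 sites without a unit to 42 at 62 sites with fewer than 3 units, 46 at 32 sites with 3 to under 4, 49.5 at 28 sites with 4 to under 5, and 51 at 27 sites with 5 or more. Over the 149 sites with a unit, the Spearman's rho of fragments and array length was 0.50, but it was 0.25 in the 86 K1 sites and 0.10 in the 67 K2 sites. Over the 182 sites of group 1, rho of fragments was 0.80 with the local background, 0.53 with peak width, 0.51 with GC content and 0.48 with the number of CG dinucleotides. In the 86 K1 sites of the group these 4 values were 0.435, 0.06, -0.01 and -0.05, and in its 100 K2 sites 0.78, 0.27, 0.26 and 0.32. Each pooled value thus exceeds those within either cluster. Peak widths had the same order, from a median of 792 bp without a unit to 1563 bp with 5 or more.

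The arrays of group 2 had a median length of 913 bp, close to that of the K1 sites in group 1, and its fragments had medians of 23, 28 and 28.5 at 17, 18 and 16 sites with 3 to under 4, 4 to under 5, and 5 or more units. The remaining 3 sites lie outside the range of these medians, with 19 and 51 fragments at 2 sites of fewer than 3 units and 43 at the site without a unit. Spearman's rho of fragments and array length was 0.24 over its 53 sites with a unit, and the difference from group 1 was not tested. Long arrays were thus found in K2 as well, at sites of group 2.

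**Figure D4:**
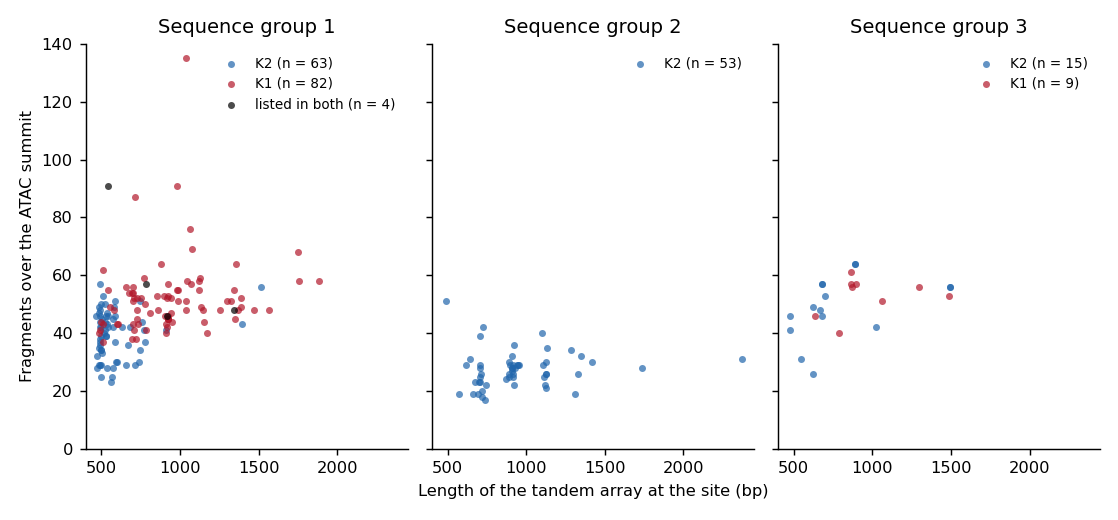
Fragments over the ATAC summit (vertical) against the length of the tandem array in bp (horizontal) for the sites of sequence groups 1 to 3 at which a unit was found, with K1 sites in red, K2 sites in blue and sites listed in both in black. In group 1 the K2 sites crowd at arrays near 500 bp and K1 sites spread to longer ones, while group 2 has long arrays with few fragments.

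Motifs were searched on both strands of the same windows and compared with the same width around all 116777 ATAC summits of the main chromosomes. The YY1 core AANATGGC was present at 203 of 265 sites (76.6%), and in 12.2% of all peak windows. It was found at all 95 K1 sites and at 112 of 174 K2 sites (64.4%). Its presence differed between the sequence groups, at 176 of 182 sites of group 1 (96.7%), 26 of 27 of group 3 (96.3%) and none of 54 of group 2. Within group 1 a match was present at 86 of 86 K1 and 94 of 100 K2 sites, but their number differed. There, 2 or more matches were found at 82 of 86 K1 sites (95.3%, interval 88.5 to 98.7%) and 59 of 100 K2 sites (59.0%, 48.7 to 68.7%). Over all groups, 90 of 95 K1 and 71 of 174 K2 sites had 2 or more. In the 2001 bp around the summits of group 1, 560 matches ran against the reading frame and 24 along it, 550 of the 560 with the letters GCCATCTT, as in the unit printed above. Consecutive matches against the frame were spaced by 212 bp in 334 of 381 cases, the length of the unit, so the motif recurs with the units. In group 3, 91 matches ran against the frame and 3 along it, and the commonest spacing of those against it was 206 bp, in 30 of 64 cases. The 54 sites of group 2 had 14 matches in the same wider stretch, 10 along the frame and 4 against it. Those 4 formed no consecutive pair, and spacing along the frame was not counted.

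The other motifs searched were found at few sites or at none. The KLF-type motif CCNCNCCC, bound by zinc finger factors such as KLF4, was at 5 of 265 sites (1.89%) and in 50.1% of all peak windows. The octamer ATGCAAAT, bound by OCT4 and its relatives, was at 0 of 265 sites and in 4.14% of all peak windows. The motif of NRF1, the cAMP response element TGACGTCA and the E-box CACGTG were likewise at 0 of 265 sites, and in 0.327%, 0.901% and 8.25% of all peak windows. For NRF1 and the cAMP response element these shares are so low that 0 of 265 shows no difference from all peaks. The windows are copies of a few sequences, so these are counts of related copies, and the absence of letters says nothing of the factor.

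Loci of chromosome 1 that match the windows but were not called as K1 or K2 sites show how far sequence and peak go together. This comparison was added after the values of the sites had been seen. At 90% identity over at least 50% of a window, 390 such loci held no EHMT2 site of any cluster, and 163 of them (41.8%, interval 36.9 to 46.9%) had an ATAC peak within 250 bp, with a median of 9 fragments at these peaks. A further 222 matching loci held a K3 or K4 site, of which 204 (91.9%, 87.5 to 95.1%) had a peak, with a median of 16 fragments. The 262 loci with a K1 or K2 site had a median of 42. Loci without an EHMT2 site were also shorter in the matched stretch, with a median of 358 bp as against 702 bp with a K3 or K4 site and 1056.5 bp with a K1 or K2 site. The length of the loci with a K1 or K2 site is in part set by the search, since each window also matches itself in full. Other loci needed to match only 50% of a window. A longer locus leaves more room for a peak, and the peak of most fragments at each locus was taken, so lengths and fragments are not independent. At 98% identity, 12 of 24 loci without an EHMT2 site and 84 of 88 with a K3 or K4 site had a peak, with medians of 15.5 and 18.5 fragments, so that the gap between these medians was smaller. The EHMT2 data had been aligned with the same placement of repeated reads, which was not examined here.

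**Figure D5:**
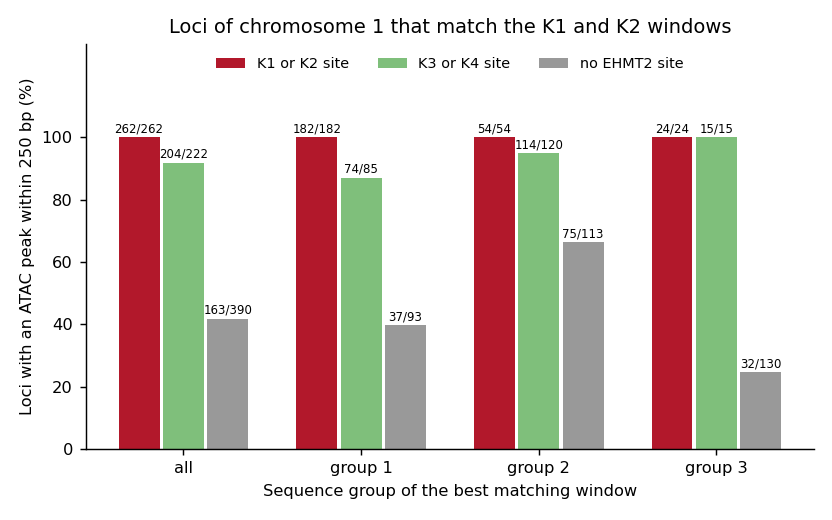
Share of loci of chromosome 1 with an ATAC peak within 250 bp (vertical, %), for loci that match the K1 and K2 windows at 90% identity or more, by sequence group of the best matching window and by the EHMT2 site they hold, with loci with a peak over all loci printed above each bar. Loci with no EHMT2 site had a peak in 41.8% of all cases, 39.8% in group 1, 66.4% in group 2 and 24.6% in group 3.

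Along the chromosome, the sites were spread at 1.38 per Mb of sequenced bases, with a median gap of 421 kb and a longest gap of 6.22 Mb. In windows of 10 Mb, their number reached 21 from 100 to 110 Mb and 21 from 140 to 150 Mb, and 7 from 150 to 160 Mb and from 180 to 190 Mb were the fewest apart from the ends of the chromosome. The first and last windows hold only 6.999 and 5.313 Mb of sequenced bases, with 5 and 3 sites. K1 and K2 sites were not kept to separate stretches: K1 outnumbered K2 only from 0 to 10, from 110 to 120 and from 150 to 160 Mb, with 12 K1 and 5 K2 sites from 110 to 120 Mb. ATAC peaks as a whole were distributed otherwise, with 713 from 130 to 140 Mb and 282 from 20 to 30 Mb, where 15 and 18 of the sites lay.

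The closest neighbours were 3 pairs of K2 sites of group 3. The pair chr1:174253631-174254438 and chr1:174254529-174254986 is 90 bp apart and lies 2246 bp from the nearest start of a protein-coding gene, that of the olfactory receptor gene Olfr419. The pair chr1:30066854-30067284 and chr1:30067426-30067582, 141 bp apart and intergenic, lies under a peak of 57 fragments (43.2 to 73.9). The pair chr1:130600162-130600439 and chr1:130600607-130601237, 167 bp apart, lies in an intron of Zp3r, a gene of the sperm acrosome, under a peak of 56 fragments (42.3 to 72.7). In each pair, both intervals fall on 1 tandem array, of 887, 677 and 1494 bp.

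Of the 265 sites, 185 were intergenic (69.8%), 78 lay in introns and 2 in exons of non-coding genes. Of the sequenced bases of the chromosome 54.3% are intergenic, and of its ATAC summits 49.0%. K1 and K2 hardly differed in this, with 69.5% and 69.0% intergenic. Inside protein-coding genes were 65 sites (24.5%, as against 39.9% of the bases and 44.5% of the ATAC summits). The reading frame ran against the host gene at 43 of them (66.2%, interval 53.4 to 77.4%) and along it at 22. By cluster, it ran against the host gene at 19 of 25 K1 sites (76%, 54.9 to 90.6%) and 24 of 42 K2 sites (57.1%, 41 to 72.3%). Sites in both were counted under each, and no share over other sites is set beside these. Adgrb3, which encodes an adhesion G protein-coupled receptor, held 4 sites with 18 to 49 fragments. Dnm3, the gene of dynamin 3, held 3 with 48 to 56, Pkhd1 held 3 with 26 to 55, and Thsd7b held 3 with 23 to 54. The median distance to the nearest start of a protein-coding gene was 117 kb, and 17 sites (6.42%) lay within 10 kb, compared with 20% of the bases and 29.3% of the ATAC summits. The nearest one was the K2 site chr1:139121760-139123273, in an intron of Dennd1b, a regulator of vesicle traffic, 805 bp from a start of that gene, with 41 fragments (29.4 to 55.6). No site lay in an exon of a protein-coding gene.

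EHMT2 coordinately repressed domains (ECORDs) are the study's name for stretches of neighbouring genes whose expression differs together, either after EHMT2 loss (the 24 h and 7 d sets) or between 2-cell-like cells and mESCs. On chromosome 1, 8 of the 265 sites (3.02%) lay in an ECORD, 4 of 95 K1 and 4 of 174 K2 sites. ECORDs cover 3.16% of the sequenced bases of the chromosome, so the share of sites in them was close to that of the bases. A total of 5 lay in the ECORD at chr1:30997842-33066350, found in 2-cell-like cells and holding Khdrbs2, which encodes an RNA-binding protein. Its K1 sites were chr1:31075152-31076598, in an intron of 4931428L18Rik, with 42 fragments (30.3 to 56.8), chr1:31700396-31702156 with 43 (31.1 to 57.9), chr1:32072787-32075250 with 48 (35.4 to 63.6) and chr1:33018768-33020185 with 46 (33.7 to 61.4). Its K2 site, chr1:32665712-32666814, had 36 (25.2 to 49.8). All 5 belong to group 1, and the Poisson intervals of their fragments overlap. In the ECORD of 2-cell-like cells at chr1:33836124-34475733, the K2 site chr1:34417739-34418059, in an exon of the non-coding gene Gm3052, had 26 fragments (17.0 to 38.1). The remaining ones are the neighbours under a peak of 64 fragments described above, in the ECORD of 7 d at chr1:173920407-174921819, which holds Fmn2 and Ifi203. The K1 sites in ECORDs thus had 42 to 48 fragments, below the K1 median of 51. Among the K2 sites in ECORDs, the site with 26 lay below the K2 median of 34. Those with 36 and 64 lay above it.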

How the data were processed

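ATAC-seq of EHMT2-dTAG mESCs (DMSO for 24 h, 2 clones, 3 technical replicates per sample per the labels) was processed by the authors, who aligned reads to mm10 with STAR 2.7.10, writing reads that match several places to 1 best place with ties at random, removed duplicates with Picard 2.26.0, used SAMtools 1.14 and bedtools 2.30.0, shifted fragments to the Tn5 cut and called peaks with MACS2 2.2.6 on both clones merged. The deposited list gives for each peak the fold enrichment, a ratio of summit pileup plus 1 to local background plus 1, and the −log10 p-value and −log10 q-value of the summit. Its deposited score was not used. Library totals were not used. The whole number of fragments behind a peak, its depth, was calculated from fold enrichment and p-value with the MACS2 formulas and came out whole within 0.001 (−log10 p) for 116778 of 116782 peaks, after the calculation was tested on simulated data. Intervals (Clopper-Pearson, Poisson, both exact, 95%) cover counting error only.

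EHMT2 intervals, summits and clusters were taken from the study's site list and ECORD ranges from its domain list, with no measured value of either. The clustering had used ATAC signal within 250 bp of the summits, so no test between clusters was made. The members, lists and comparisons were chosen with earlier results of these data known. Where several peaks overlapped, the nearest summit was to be used. Sequences came from GRCm38 (RefSeq assembly, repeats in lower case) and genes from GENCODE, in an earlier release than the study's. Copies and groups were found with BLAST 2.17.0. A tandem unit was the shift of 100 to 400 bp with the best match over 300 bp within 1000 bp of the summit, at 75% or more, and the array extended as far as 100 bp stretches matched at 75%. Named sites were, in each of K1 and K2, the 3 with most and 3 with fewest fragments and 1 at the median. Not all ties were described. Also named were sites near or in exons of protein-coding genes, the 3 closest pairs, the 5 of most unique words, sites in ECORDs and sites in both clusters. Tandem units printed in full, array lengths by cluster, motif spacing, matching loci and the shares of frames, units and gene positions over other sites, peaks and bases were chosen after values were seen, as were the host genes and the cell type marker genes named. Alternatives were stricter peaks (−log10 q-value of at least 10), other windows, identities, word, frame and interval definitions. All steps were run in Python 3.11.15 (SciPy 1.17.1, NumPy 2.4.6, pandas 2.3.3).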

Additional observations from a re-analysis of the deposited data

How the results depend on the processing

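No paired analysis was possible because the deposited peaks merge both clones, and for the same reason neither clone could be left out. Of 62 alternatives to 20 results, 46 stayed within the counting interval of the value given or, for numbers of sites, within 1.5 times of it. Some of these could not have moved, since with a peak at every site a wider window or a subset of sites must again give 100%. Taking the peak of highest fold enrichment returned the same value each time. Among the 16 alternatives that moved, the share of K2 sites with a peak was 96.0% when the ATAC summit had to lie inside the EHMT2 interval. The median share of unique words was 0 with words of 50 bases. The median number of copies was 691 at 98% identity and 1671 with matches over 80% of the window, and the median GC content was 64.4% in the 50 bp on either side of the summit and 55.6% over the whole EHMT2 interval. The number of sequence groups was 3 at 80% identity, where groups 1 and 3 joined, 10 at 95% identity and 14 with matches over 80% of the window. The second largest group held no K1 site in each of these groupings, with 55, 52 and 53 sites. Alternatives for the array length and for matching loci were chosen after seeing the data. Measuring group 1 K2 sites without a unit with the commonest one gave a median array of 0.496 kb (0.535 kb in the report). With a 65% match between units the median of group 1 K1 sites was 0.9505 kb (0.9175 kb in the report), and with an 85% match that of K2 sites was 0.501 kb, while matches of 70% and 80% moved neither beyond its interval. Of matching loci at 98% identity, 50% without an EHMT2 site and 95.5% with a K3 or K4 site had a peak, with medians of 15.5 and 18.5 fragments (9 and 16 in the report). No K1 site was left where 50% of words had to be unique. Depth limits single sites, the lowest K2 site resting on 16 fragments, and random placement of repeated reads may limit any site without unique words. The reads were paired, and how far a mate outside the window places such fragments was not tested.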
